A study of Mus musculus with 8 samples.

Results

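The inhibitors of cyclin-dependent kinases (CDKs) and the D-type cyclins were described in primary calvarial osteoblasts of C57Bl/6 mice. The group comprised 10 genes, of which 7 are CDK inhibitors (Cdkn1a, Cdkn1b, Cdkn1c, Cdkn2a, Cdkn2b, Cdkn2c and Cdkn2d) and 3 are D-type cyclins (Ccnd1, Ccnd2 and Ccnd3), out of 16593 genes with a named probe. All 20 probes whose platform symbol is one of these genes were followed. RNA was profiled on 8 Illumina arrays, 4 of Lrp5-/- cells and 4 of Lrp5+/+ cells, the control. Lrp5 is a co-receptor for Wnt ligands. All the cells were at day 7 of differentiation, in medium that held 10 mM beta-glycerol phosphate and 50 ug/ml ascorbic acid, and had been given an adenovirus for Cre recombinase or for green fluorescent protein 48 hours before differentiation was induced. Which group got which virus is not given by the labels, and if the viruses followed the groups, virus and genotype cannot be told apart. Whether the arrays within a group stand for different mice or separate dishes is not given either. Standard errors and p-values therefore measure only the spread between these arrays.

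The members were chosen by the normalized signals of these same arrays: Cdkn1c was selected on its fall, the largest change among genes detected on all arrays, and the other genes were added by family. Differences of the 10 genes between Lrp5-/- and Lrp5+/+ arrays are therefore given as a description, with their standard errors (SE) and with no test. Values are background-corrected, quantile-normalized signals on the log2 scale unless they are called intensities, which are the deposited linear signals. Arrays had median intensities between 126 and 155, and between 9685 and 10363 probes were detected on each, at a detection p under 0.01. The number of arrays, 4 in each group, limits the precision of every difference. The single Lrp5 probe read 5.63, 5.66, 6.07 and 6.11 log2 on the Lrp5-/- arrays, against 5.43, 5.70, 5.48 and 5.53 log2 on the Lrp5+/+ arrays, and was detected on 2 of the 4 Lrp5-/- arrays and on 1 of the 4 Lrp5+/+ arrays. The groups overlapped near the detection limit, and no source used here says whether the probe lies in the deleted part, so it checks neither label.

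Cells enter the division cycle when D-type cyclins, made in response to growth signals, bind CDK4 or CDK6 and start the phosphorylation of the retinoblastoma protein, which frees E2F transcription factors. INK4 inhibitors (Cdkn2a to Cdkn2d) bind CDK4 and CDK6 themselves. Cip/Kip inhibitors (Cdkn1a, Cdkn1b and Cdkn1c) bind cyclin-CDK complexes, above all those of CDK2. In bone-forming cells, exit from the cycle accompanies differentiation, and Cdkn1c, an imprinted gene expressed from the maternal copy, is known for its part in skeletal development. Ccnd1 is a widely used target gene of Wnt and beta-catenin signalling.

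Promoters were read for Cdkn2a and Cdkn2b, INK4 genes that lie close together on chromosome 4, where Cdkn2c lies farther off. The groups of arrays stood apart for Cdkn2b and overlapped for Cdkn2a. Sequences are from RefSeq on build GRCm38.p6 and run from 250 bases before to 50 bases after a transcription start, 5′ to 3′, with the GC box GGGCGG or its reverse complement CCGCCC in capitals.
Cdkn2b, minus strand, chr4:89310983-89311282: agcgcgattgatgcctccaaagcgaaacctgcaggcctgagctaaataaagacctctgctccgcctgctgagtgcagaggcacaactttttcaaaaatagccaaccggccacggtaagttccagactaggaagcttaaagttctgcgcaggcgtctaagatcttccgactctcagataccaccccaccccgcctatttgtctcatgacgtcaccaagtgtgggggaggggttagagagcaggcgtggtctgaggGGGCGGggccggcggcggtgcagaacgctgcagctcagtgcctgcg
Cdkn2a promoter 1, minus strand, chr4:89282143-89282442: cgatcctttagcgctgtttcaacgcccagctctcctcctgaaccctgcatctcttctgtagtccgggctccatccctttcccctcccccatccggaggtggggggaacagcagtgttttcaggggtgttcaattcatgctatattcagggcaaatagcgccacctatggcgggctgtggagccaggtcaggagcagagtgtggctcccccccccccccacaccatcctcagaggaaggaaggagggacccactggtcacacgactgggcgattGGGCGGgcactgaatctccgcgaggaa
Cdkn2a promoter 2, minus strand, chr4:89294570-89294869: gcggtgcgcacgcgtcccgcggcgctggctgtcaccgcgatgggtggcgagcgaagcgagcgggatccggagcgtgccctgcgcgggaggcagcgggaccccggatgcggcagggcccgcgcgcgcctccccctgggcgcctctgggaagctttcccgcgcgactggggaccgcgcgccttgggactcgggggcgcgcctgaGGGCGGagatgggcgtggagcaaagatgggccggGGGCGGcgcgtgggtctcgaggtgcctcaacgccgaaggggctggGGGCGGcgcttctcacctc
Promoters were at hand for 7 of the 10 genes, 11 in all, but not for Cdkn1c, Ccnd1 or Ccnd2. The GC box stood in 9 of these 11 windows, against 35.7% of 32851 mouse promoters of the same length. TATAAA stood in 0 of the 11 (13.6% of all promoters), and the E-box CACGTG in 1 of the 11, a Cdkn2c window (7.2% of all promoters), with both strands searched for each motif; the letters of different motifs can share at most an end base. The 11 windows differed in base composition, with a GC content between 44.0% and 77.0% against a median of 52.7% over all promoters. Apart from the Cdkn2c window at 44.0%, all lay above that median, from 54.7% upwards. The GC box count was not matched for base composition. A match is a match of letters and was not tested as a binding site.

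Of the 20 probes, 16 were detected on at least 4 of the 8 arrays and 4 on no array. Detected probes stood for 9 of the 10 genes. Cdkn1b had no detected probe. Of the 16 detected probes, 12 were lower and 4 higher in Lrp5-/- cells by their mean. In the fit of all 7041 detected genes with limma, 3 of the 9 genes fell under a Benjamini-Hochberg adjusted p of 0.05, Cdkn2b upwards and Cdkn1c and Ccnd1 downwards, where 8.62% of all genes tested were called (3.54% higher and 5.08% lower). The groups did not overlap for 4 of the 9 genes, the same 3 and Cdkn1a, against 16.8% of all genes tested. Since the same contrast chose the set, nothing is read from these counts.

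Cdkn1c encodes p57Kip2, the Cip/Kip inhibitor with the most restricted expression. On Lrp5-/- arrays 1 to 4 its intensity was 197, 173, 202 and 254, against 823, 846, 698 and 610 on Lrp5+/+ arrays 1 to 4. It was detected on all 8 arrays, but its Lrp5-/- intensities lay close to the lowest intensity detected on any array, which was between 147 and 182. After normalization it read 6.86, 6.16, 6.82 and 6.89 log2 in Lrp5-/- cells, against 9.52, 9.33, 9.24 and 8.85 log2 in Lrp5+/+ cells. All 4 Lrp5-/- arrays were below all 4 Lrp5+/+ arrays, with a gap of 1.96 log2 between the nearest 2 arrays. The means were 6.68 ± 0.35 and 9.24 ± 0.28 log2 (SD, n = 4 each), a difference of -2.56 log2 (SE 0.18), or 5.89-fold lower in Lrp5-/- cells. Among the 6436 genes detected on all 8 arrays that was the largest difference in either direction, which is how the gene was chosen. The next fall was that of Cd74 at -1.74. The median over all 7041 genes tested was 0.00. Close to background the fold hangs on the background correction, and in the authors' deposited log2 values, whose background treatment is not stated, the difference was -1.69, or 3.23-fold. In RNA from a whole culture, fewer cells of a type and less RNA per cell cannot be told apart.

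**Figure D1:**
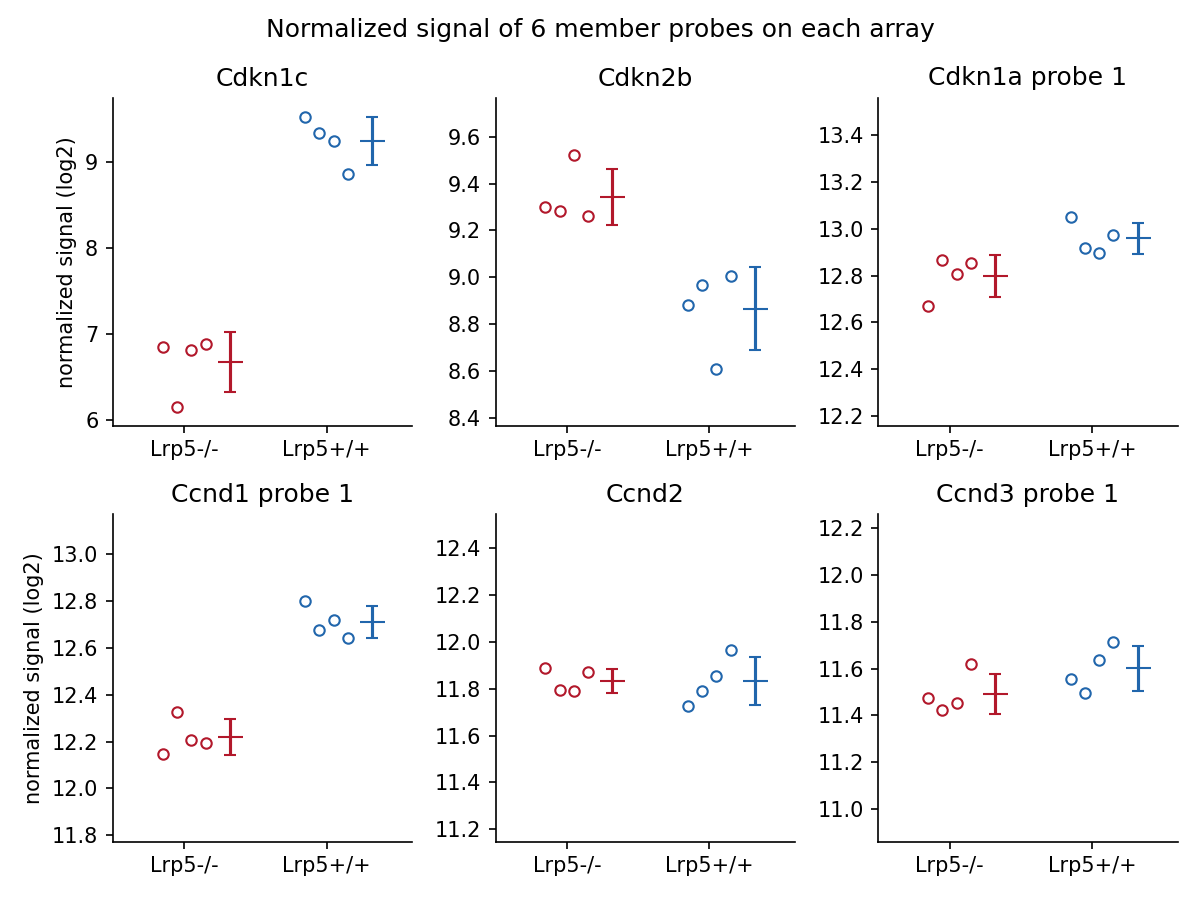
Normalized signal (log2, y axis) of 6 probes on each array, Lrp5-/- arrays in red on the left and Lrp5+/+ arrays in blue on the right of each panel; open circles are arrays, crosses with bars are the mean and SD of 4 arrays, and the y axes differ between panels and do not start at 0. Cdkn1c lies between 6.16 and 6.89 log2 on Lrp5-/- arrays and between 8.85 and 9.52 log2 on Lrp5+/+ arrays, whereas the Ccnd2 groups lie on top of each other.

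Cdkn1a encodes p21, the Cip/Kip inhibitor that p53 induces. Its first probe, the brightest, read 12.67, 12.87, 12.81 and 12.85 log2 in Lrp5-/- cells, against 13.05, 12.92, 12.90 and 12.97 log2 in Lrp5+/+ cells. The groups stood apart by only 0.03 log2 at their nearest arrays, and the difference was -0.16 log2 (SE 0.07), or 1.12-fold lower in Lrp5-/- cells. The second probe read 11.08, 10.97, 11.04 and 10.89 log2 in Lrp5-/- cells, against 11.09, 11.10, 11.04 and 11.16 log2 in Lrp5+/+ cells, with a difference of -0.10 (SE 0.06). Probe 3 read 9.97, 9.83, 9.88 and 9.89 log2 in Lrp5-/- cells, against 10.08, 9.95, 10.06 and 9.86 log2 in Lrp5+/+ cells, with a difference of -0.09 (SE 0.07). All 3 probes were lower by their means, and for probes 2 and 3 the groups overlapped.

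Cdkn1b encodes p27, the Cip/Kip inhibitor whose level is set largely by protein breakdown. Its 3 probes were detected on no array of either group. Their intensities were between 102 and 157 on Lrp5-/- arrays and between 113 and 142 on Lrp5+/+ arrays, in the range of the array medians. No fold is given for it.

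Cdkn2b encodes p15INK4b, an inhibitor that TGF-beta induces in many cells. Its only probe read 9.30, 9.28, 9.52 and 9.26 log2 in Lrp5-/- cells, against 8.88, 8.97, 8.61 and 9.01 log2 in Lrp5+/+ cells. All 4 Lrp5-/- arrays were above all 4 Lrp5+/+ arrays, with a gap of 0.26 log2. The means were 9.34 ± 0.12 and 8.87 ± 0.18 log2 (SD, n = 4 each), a difference of 0.48 log2 (SE 0.10), or 1.39-fold higher in Lrp5-/- cells. On the scale of deposited intensities the gap was not seen, since the Lrp5-/- arrays read 634, 719, 768 and 804, against 565, 686, 486 and 663 on the Lrp5+/+ arrays, which overlap.

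Cdkn2a, the near neighbour of Cdkn2b, encodes p16INK4a and, from another first exon, the ARF protein that holds back Mdm2. Its first probe read 6.50, 6.70, 6.80 and 6.65 log2 in Lrp5-/- cells, against 6.62, 6.47, 6.80 and 6.47 log2 in Lrp5+/+ cells, a difference of 0.07 (SE 0.09). The second read 6.23, 5.75, 6.37 and 6.07 log2 in Lrp5-/- cells, against 6.23, 6.36, 6.13 and 6.26 log2 in Lrp5+/+ cells, a difference of -0.14 (SE 0.12). The probes differed in sign, their groups overlapped, and both lay near the detection limit, so that no direction is given for Cdkn2a. The files do not say which of the 2 transcripts either probe reads.

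Cdkn2c encodes p18INK4c. Its detected probe read 7.35, 7.24, 7.60 and 7.60 log2 in Lrp5-/- cells, against 7.38, 7.49, 7.80 and 7.53 log2 in Lrp5+/+ cells, a difference of -0.10 (SE 0.11). Its other probe was detected on no array. Cdkn2d, which encodes p19INK4d, read 6.54, 7.15, 6.96 and 6.74 log2 in Lrp5-/- cells, against 7.08, 6.71, 7.04 and 6.69 log2 in Lrp5+/+ cells, a difference of -0.03 (SE 0.14). For both genes the groups overlapped and the difference was under its SE.

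Ccnd1 encodes cyclin D1, and its 3 probes gave nearly the same difference. The first read 12.15, 12.33, 12.21 and 12.19 log2 in Lrp5-/- cells, against 12.80, 12.68, 12.72 and 12.64 log2 in Lrp5+/+ cells. The second read 11.94, 11.91, 11.80 and 11.93 log2 in Lrp5-/- cells, against 12.45, 12.32, 12.32 and 12.40 log2 in Lrp5+/+ cells. Probe 3 had intensities of 584, 603, 542 and 708 in Lrp5-/- cells, against 816, 954, 923 and 890 in Lrp5+/+ cells, and ran from 8.93 to 9.16 log2 in Lrp5-/- cells, against 9.50 to 9.71 log2 in Lrp5+/+ cells. For each probe all 4 Lrp5-/- arrays were below all 4 Lrp5+/+ arrays. The differences were -0.49 (SE 0.06), -0.48 (SE 0.06) and -0.53 (SE 0.07), that is 1.41-fold, 1.39-fold and 1.44-fold lower in Lrp5-/- cells. The 3 probes share arrays and RNA and are not 3 measurements of the cultures. The deposited intensities of the first probe kept the separation, at 4063, 5256, 4437 and 5335 on Lrp5-/- arrays, against 6986, 7401, 6619 and 6892 on Lrp5+/+ arrays.

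For the other two D-type cyclins the groups overlapped. Ccnd2 (cyclin D2) read 11.89, 11.79, 11.79 and 11.87 log2 in Lrp5-/- cells, against 11.72, 11.79, 11.85 and 11.97 log2 in Lrp5+/+ cells, a difference of 0.00 (SE 0.07). Ccnd3 (cyclin D3) read on its first probe 11.47, 11.42, 11.45 and 11.62 log2 in Lrp5-/- cells, against 11.56, 11.49, 11.64 and 11.71 log2 in Lrp5+/+ cells, a difference of -0.11 (SE 0.07). The second Ccnd3 probe read 7.68, 7.63, 7.77 and 7.86 log2 in Lrp5-/- cells, against 7.52, 7.56, 7.77 and 7.77 log2 in Lrp5+/+ cells, a difference of 0.08 (SE 0.08). Its last probe was detected on 1 Lrp5-/- array and 3 Lrp5+/+ arrays, at 5.46, 5.40, 5.96 and 5.63 log2 in Lrp5-/- cells, against 5.90, 5.92, 6.20 and 5.67 log2 in Lrp5+/+ cells, a difference of -0.31 (SE 0.14). The Ccnd3 probes thus differed in sign, and no direction is given for the gene.

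**Figure D2:**
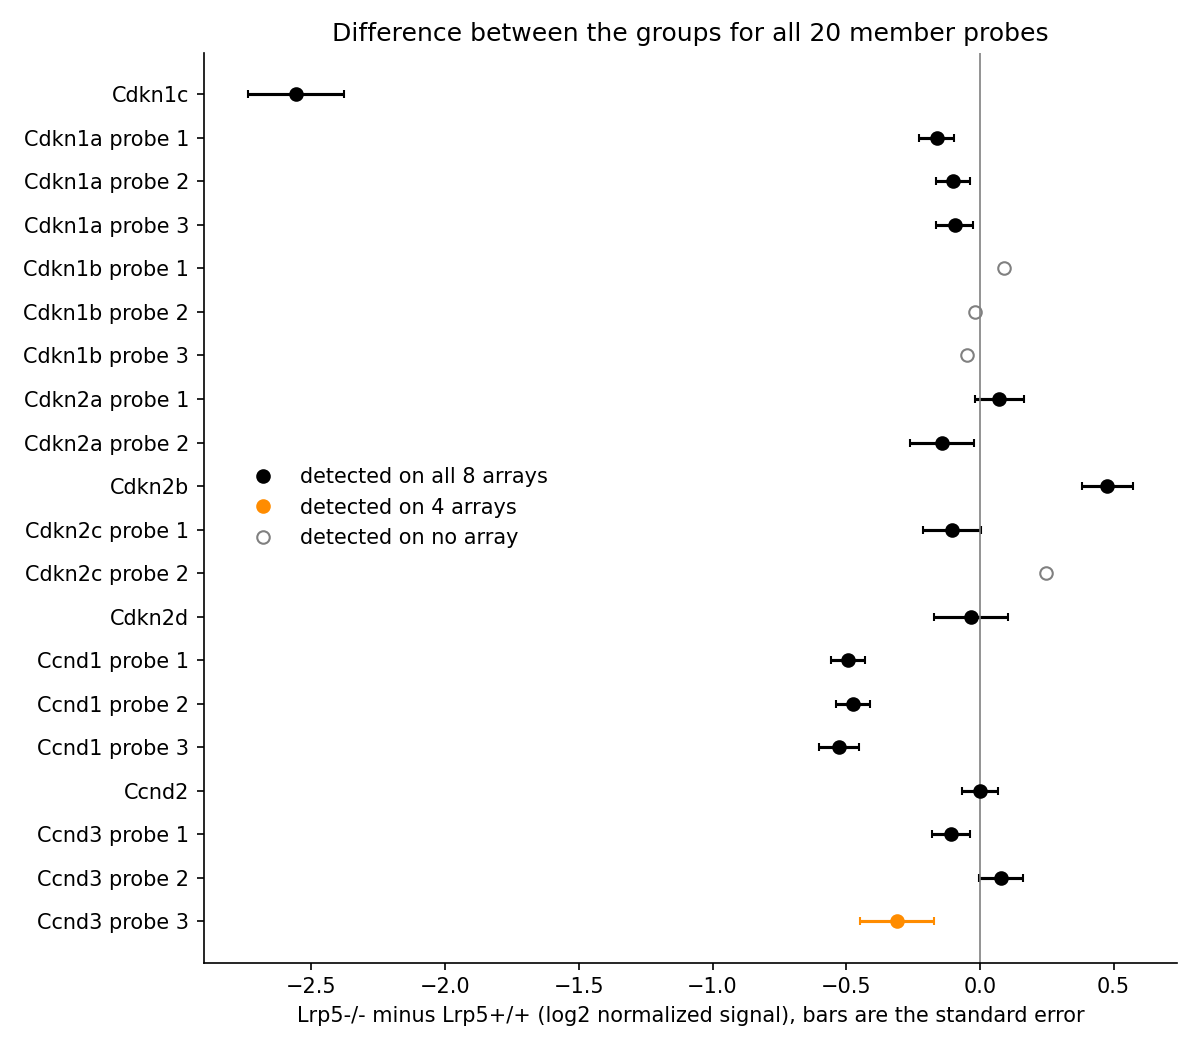
Lrp5-/- minus Lrp5+/+ difference in log2 normalized signal (x axis) for each of the 20 probes (rows); points are differences of group means over 4 and 4 arrays and bars are the standard error, with open grey points for probes detected on no array. Cdkn1c stands at -2.56, the 3 Ccnd1 probes between -0.53 and -0.48, Cdkn2b at 0.48, and every other detected probe between -0.31 and 0.08.

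Deviations from each probe's own mean show the same pattern array by array. Lrp5-/- array 2 was lowest of its group for Cdkn1c (6.16 log2) and for the second Cdkn2a probe (5.75 log2) but highest for Cdkn2d (7.15 log2) and for the first Ccnd1 probe (12.33 log2), so that its place in the group differed between members. Lrp5+/+ array 3 was lowest of its group for Cdkn2b (8.61 log2) and highest for Cdkn2c (7.80 log2) and for the last Ccnd1 probe (9.71 log2).

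**Figure D3:**
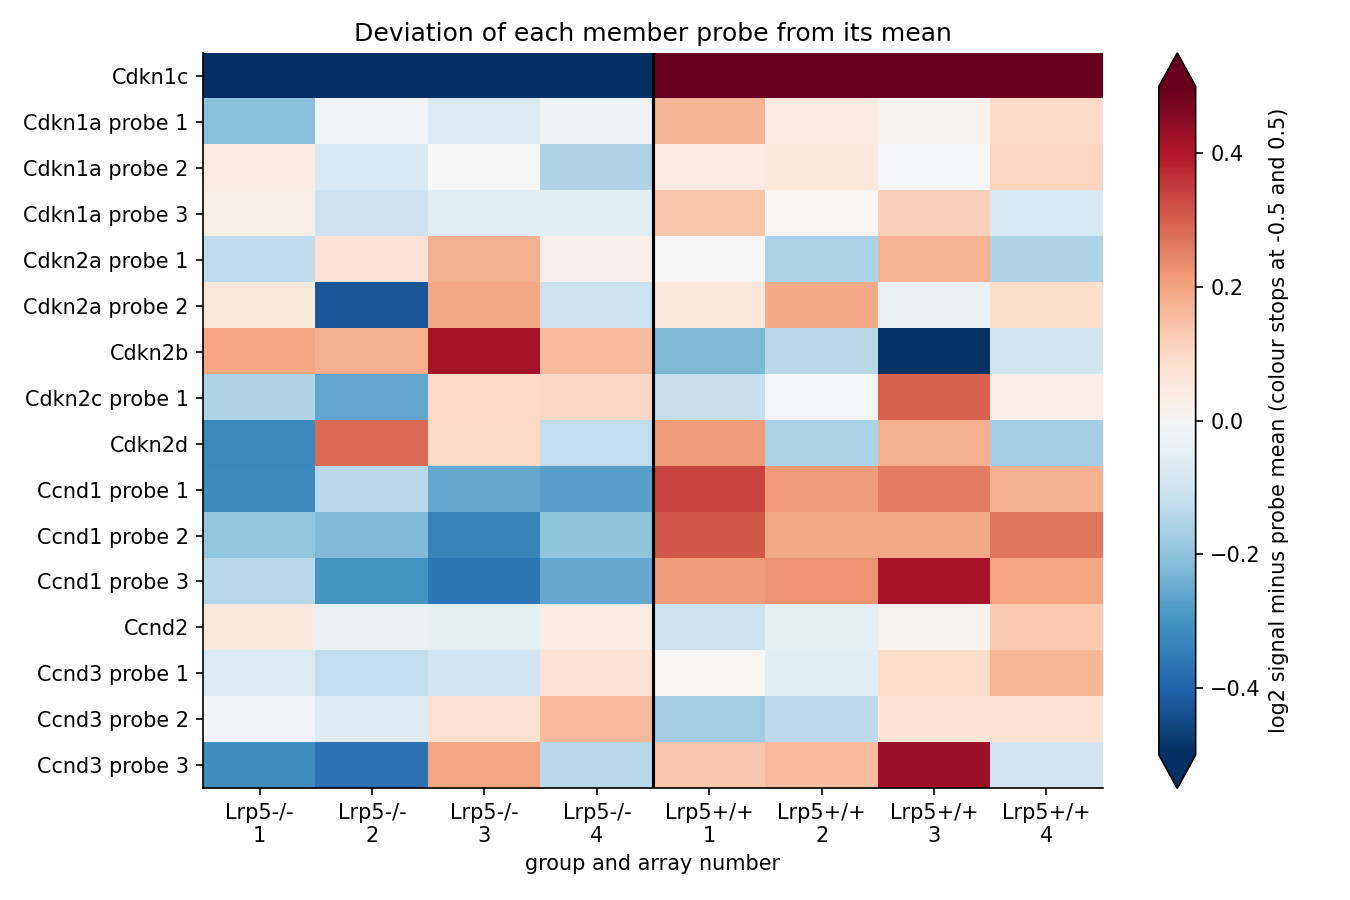
Deviation of each of the 16 detected probes (rows) from its mean over the 8 arrays, in log2, with Lrp5-/- arrays 1 to 4 on the left of the black line and Lrp5+/+ arrays 1 to 4 on the right; blue is below and red above the mean, and the colour stops at -0.5 and 0.5. Cdkn1c and the Ccnd1 probes are blue on all 4 Lrp5-/- arrays and red on all 4 Lrp5+/+ arrays, and Cdkn2b is the reverse.

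Among detected genes, those whose profile over the 8 arrays was most like that of Cdkn1c, by the root mean square difference after each gene's mean was taken off, were Cd74, Olfr372, Tas2r106, Tinagl1 and Vpreb1, in alphabetical order. Likeness here means a large fall in the same arrays. Cd74, whose product chaperones MHC class II molecules, was detected on all 8 arrays and averaged 7.34 ± 0.23 log2 in Lrp5-/- cells and 9.08 ± 0.10 log2 in Lrp5+/+ cells (SD, n = 4 each). It lay 0.48 log2 from the profile of Cdkn1c, whose own root mean square was 1.31 log2. The other 4 were detected on no Lrp5-/- array and on all 4 Lrp5+/+ arrays, so that their distances rest on signals not above background, and neither a distance, an order nor a fold is given for them. The genes most like Ccnd1, whose own root mean square was 0.25 log2, were Csrnp2 (0.04), Trnp1 (0.07), Mrps6 (0.07), Camk1 (0.08) and Marcksl1 (0.08). They were found by this contrast, and their differences, between -0.56 for Trnp1 and -0.37 for Marcksl1, are a description.

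Cdkn1c and Ccnd1 both lie on chromosome 7. In the RefSeq gene order of GRCm38.p6, the immediate neighbours of Cdkn1c are the long noncoding RNAs 4933417O13Rik and Gm33663, which had no probe. Of its protein-coding neighbours, Kcnq1, Slc22a18 and Phlda2 had probes that failed the detection filter. Phlda2 was detected on no array, and without the filter its background-level signal was called lower, at -0.42 log2 (limma adjusted p = 0.0270). Nap1l4, a nucleosome assembly protein, differed by 0.05 log2 (SE 0.07, limma adjusted p = 0.706). Between Cdkn1c and Ccnd1 stand 22 protein-coding genes, of which 20 had a probe and 5 were tested; 0 of these 5 were called, with differences between -0.28 and 0.16. Beside Cdkn2a on chromosome 4, the immediate neighbours Tgif2-ps1 and Gm12610 had no probe, and Mtap, the methylthioadenosine phosphorylase gene on the far side from Cdkn2b, differed by -0.04 log2 (SE 0.07, limma adjusted p = 0.780). Cdkn1c belongs to an imprinted cluster, so imprinted genes were listed too. Of 13 on distal chromosome 7, 4 were tested and 0 called (median -0.01; 1 without the detection filter, Phlda2), among them Igf2 at -0.05 (SE 0.06). Of 17 elsewhere, 7 were tested and 0 called (median -0.04).

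The partners and the pathway around the members were followed through 9 lists of 146 genes, of which 83 were tested. These lists were drawn up with earlier results of these data known, so their counts are a description. In limma's fit of all genes 0 of the 83 were called higher and 10 lower, beside the 3.54% and 5.08% of all genes. The 10 were Ccne1, Ccne2, Cdk1, Cdk2, Ccng1, Mcm2, Mcm4, Mcm5, Ezh2 and Bmi1. The lower count was 6 without Lrp5-/- array 2, 4 without Lrp5+/+ array 2 and 3 without Lrp5+/+ array 3, and Ccne1, Ccng1 and Mcm2 were called under every alternative run.

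Of the CDKs and the cyclins of the later phases, 5 of 13 were tested, 4 fell and 0 rose (median -0.34, against 0.00 over all genes tested). Ccne1, a partner of CDK2 at the start of S phase, averaged 6.87 ± 0.21 log2 in Lrp5-/- cells and 7.36 ± 0.08 log2 in Lrp5+/+ cells (SD, n = 4 each), a fall of 1.41-fold (limma adjusted p = 0.0147). In the authors' log2 values the fall of Ccne1 was 1.20-fold. Cdk2, the kinase that Cip/Kip inhibitors bind, averaged 9.67 ± 0.09 log2 in Lrp5-/- cells and 10.01 ± 0.09 log2 in Lrp5+/+ cells (limma adjusted p = 0.0181), and its 3 other detected probes were also lower, by means of -0.39, -0.22 and -0.29. Ccne2 differed by -0.43 (SE 0.10, adjusted p = 0.0319) and Cdk1, the mitotic kinase, by -0.33 (SE 0.09, adjusted p = 0.0440), both in the limma fit. For Ccne2 the difference in the authors' log2 values was -0.22. The calls of Cdk2 and Ccne2 were lost without Lrp5+/+ array 2 (adjusted p = 0.0544 and 0.0852) or array 3 (0.0551 and 0.0828), that of Ccne2 also without Lrp5-/- array 1, 2 or 3 (0.0776, 0.0832 and 0.0639), and that of Cdk1 in 7 of the 8 fits that left out 1 array. The call of Ccne2 was also lost without a detection filter (adjusted p = 0.0709), and that of Cdk1 under 5 of the 12 other settings, with 75th percentile scaling (0.0603) among them. That of Cdk2 was also lost with the replicate number as a block (limma adjusted p = 0.0558). The kinase partners of the D-type cyclins were not among the genes tested.

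Of 18 genes of S phase and mitosis, 14 were tested, 3 fell, 0 rose and all 14 had a mean below 0 (median -0.35). Mcm2, Mcm4 and Mcm5 are subunits of the helicase that opens replication origins. Mcm2 averaged 6.94 ± 0.20 log2 in Lrp5-/- cells and 7.64 ± 0.10 log2 in Lrp5+/+ cells (SD, n = 4 each), a fall of 1.63-fold (limma adjusted p = 0.00293). In the authors' log2 values the fall of Mcm2 was 1.32-fold. Mcm4 fell by 0.48 log2 (SE 0.10, adjusted p = 0.0176 in limma) and Mcm5 by 0.40 log2 (SE 0.08, adjusted p = 0.0181 in limma). Without Lrp5+/+ array 3 the adjusted p was 0.0527 for Mcm4 and 0.0504 for Mcm5, and without Lrp5+/+ array 2 it was 0.0510 for Mcm4. With the replicate number as a block, the limma adjusted p of Mcm4 was 0.0511. The list's mean deviation per array was -0.09, -0.22, -0.14 and -0.23 log2 on the Lrp5-/- arrays, against 0.15, 0.35, 0.13 and 0.05 log2 on the Lrp5+/+ arrays. The 2 groups of arrays did not overlap in this summary, and Lrp5+/+ array 2 stood highest. Since the list was drawn up with earlier results of these data known, that separation is a description.

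Other parts of the pathway held few calls. Of the pocket proteins, which D-type cyclin kinases act on, and the E2F factors and related genes listed with them, 11 of 19 were tested and 0 called (median -0.09). Under 6 of the 20 alternatives between 1 and 3 of them were called, all lower: E2f1, E2f6 and Lin54 without background correction and with a trended prior, E2f1 and E2f6 in the authors' log2 values, E2f6 and Foxm1 with the mean of probes or each probe on its own, and Lin54 without Lrp5+/+ array 4. Rb1, the retinoblastoma gene, differed by -0.12 (SE 0.08, limma adjusted p = 0.350). Of the CDK-modifying enzymes and partner proteins 5 of 12 were tested and 0 called (median 0.09), and of the ubiquitin ligase genes that direct breakdown of the members' proteins 12 of 16 and 0 (median -0.08), among them Skp2, which marks p27, at -0.23 (SE 0.11, limma adjusted p = 0.231). Among other cyclins, 6 of 12 were tested, and Ccng1, which p53 induces, was called at -0.35 (SE 0.06, limma adjusted p = 0.00882), with its 2 other detected probes at -0.36 and -0.36.

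Of 26 known regulators of the members' transcription, 19 were tested, 2 fell and 0 rose (median 0.02). Ezh2 and Bmi1 encode Polycomb proteins. Of the same list's other Polycomb genes tested, Eed was at 0.07, Suz12 at -0.04, Ring1 at 0.14 and Rnf2 at -0.24 log2, and none of these 4 was called. Ezh2 averaged 7.43 ± 0.16 log2 in Lrp5-/- cells and 7.79 ± 0.10 log2 in Lrp5+/+ cells (SD, n = 4 each; limma adjusted p = 0.0352), and Bmi1 averaged 6.93 ± 0.13 log2 in Lrp5-/- cells and 7.31 ± 0.17 log2 in Lrp5+/+ cells (SD, n = 4 each; limma adjusted p = 0.0364). For both genes the groups overlapped, and each call was lost in 6 of the 8 fits that left out 1 array, with adjusted p up to 0.0921 for Ezh2 and 0.0953 for Bmi1. Both calls were also lost without a detection filter (limma adjusted p = 0.0771 for Ezh2 and 0.0799 for Bmi1). That of Ezh2 was lost with the replicate number as a block (0.0536), and that of Bmi1 with a detection p under 0.05 (0.0504). Foxo1, a factor that induces Cdkn1b in other cells, was at 0.46 (SE 0.13) with an adjusted p of 0.0506 in limma. Myc differed by 0.11 (SE 0.13, limma adjusted p = 0.651) and Ctnnb1, the gene of beta-catenin, by -0.17 (limma adjusted p = 0.164). The other detected Ctnnb1 probe was at -0.04.

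**Figure D4:**
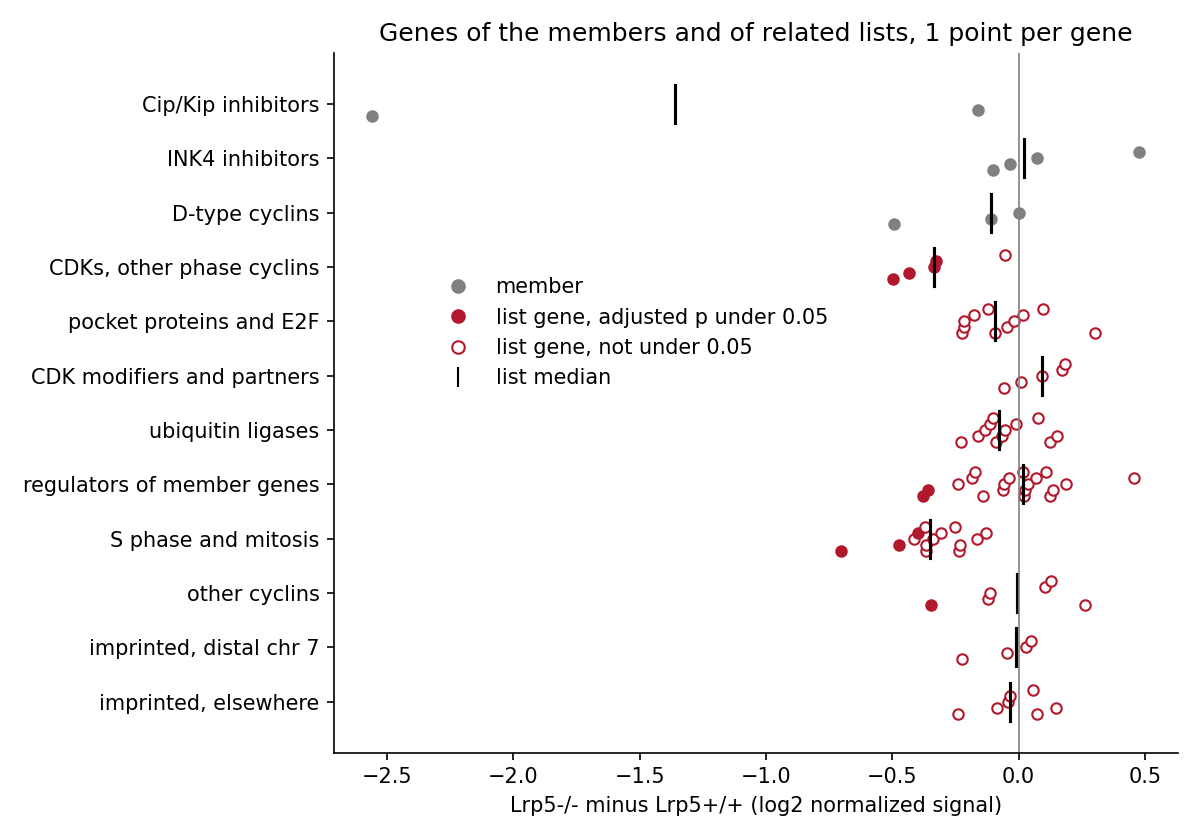
Lrp5-/- minus Lrp5+/+ difference in log2 normalized signal (x axis) of each detected gene of the 3 member families (grey) and of 9 related lists (red; filled where limma's adjusted p was under 0.05); rows are lists and black ticks are list medians. All 14 tested genes of S phase and mitosis lie left of 0, from -0.70 to -0.13. Cdkn1c, which was chosen on its fall, lies apart from every other gene shown at -2.56.

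Markers of cell types were read beside the members. Each sum below adds the linear normalized signal of all listed genes with a probe, including those detected on no array. Bright genes therefore lead a sum, and part of it is background. Of 10 osteoblast markers 6 were tested and 0 called, and all 6 had a mean above 0 (median 0.16). Col1a2 was at 0.34 (limma adjusted p = 0.0561), and its groups did not overlap. Ibsp was at 0.58 (limma adjusted p = 0.0700), detected on 4 Lrp5-/- arrays and 1 Lrp5+/+ array. The osteoblast sum, in which Sparc was brightest, ran from 32412 to 35684 on Lrp5-/- arrays and from 30902 to 33733 on Lrp5+/+ arrays. Sp7, Col1a1 and Alpl were detected on all 8 arrays, whereas Bglap (osteocalcin) and Postn were detected on none. Leukocyte markers summed to between 3004 and 3578 on the Lrp5-/- arrays, against between 3538 and 3938 on the Lrp5+/+ arrays. Of 7 tested, 6 had a mean below 0 and 1 above, Cd53 at 0.28 (limma adjusted p = 0.166). The 1 called was Laptm5, at -0.47 (limma adjusted p = 0.00420). Ptprc, Itgam and Fcer1g were detected on no array. Chondrocyte markers summed to between 1920 and 2054 on the Lrp5-/- arrays, against between 1290 and 1636 on the Lrp5+/+ arrays. Of 3 tested 1 was called, Col2a1, the brightest of the list, at 0.45 (limma adjusted p = 0.00757). Acan and Col9a1 were detected on no array. Muscle markers summed to between 225 and 285 on the Lrp5-/- arrays, against between 323 and 395 on the Lrp5+/+ arrays. The 1 tested, Acta1, was called at -0.73 (limma adjusted p = 0.0153). Myod1, Myog, Des and Ckm were detected on no array, so the rest of that sum is signal not above background. The 5 endothelial and 5 adipocyte markers with a probe were detected on no array. The part of these markers, and of the S-phase genes, in the differences of Cdkn1c, Ccnd1 and Cdkn2b was not tested.

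Under 12 other processing settings and 8 fits that each left out 1 array, Cdkn1c and Ccnd1 stayed lower and Cdkn2b stayed higher in Lrp5-/- cells. The difference of Ccnd1 ran from -0.53 to -0.43, and that of Cdkn2b from 0.38 to 0.52. The difference of Cdkn1c ran from -2.69 to -1.69, and it was smallest in size without background correction and in the authors' deposited log2 values. Cdkn2a, Cdkn2d and Ccnd2 changed sign under 1, 4 and 5 of the 20 alternatives.

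**Figure D5:**
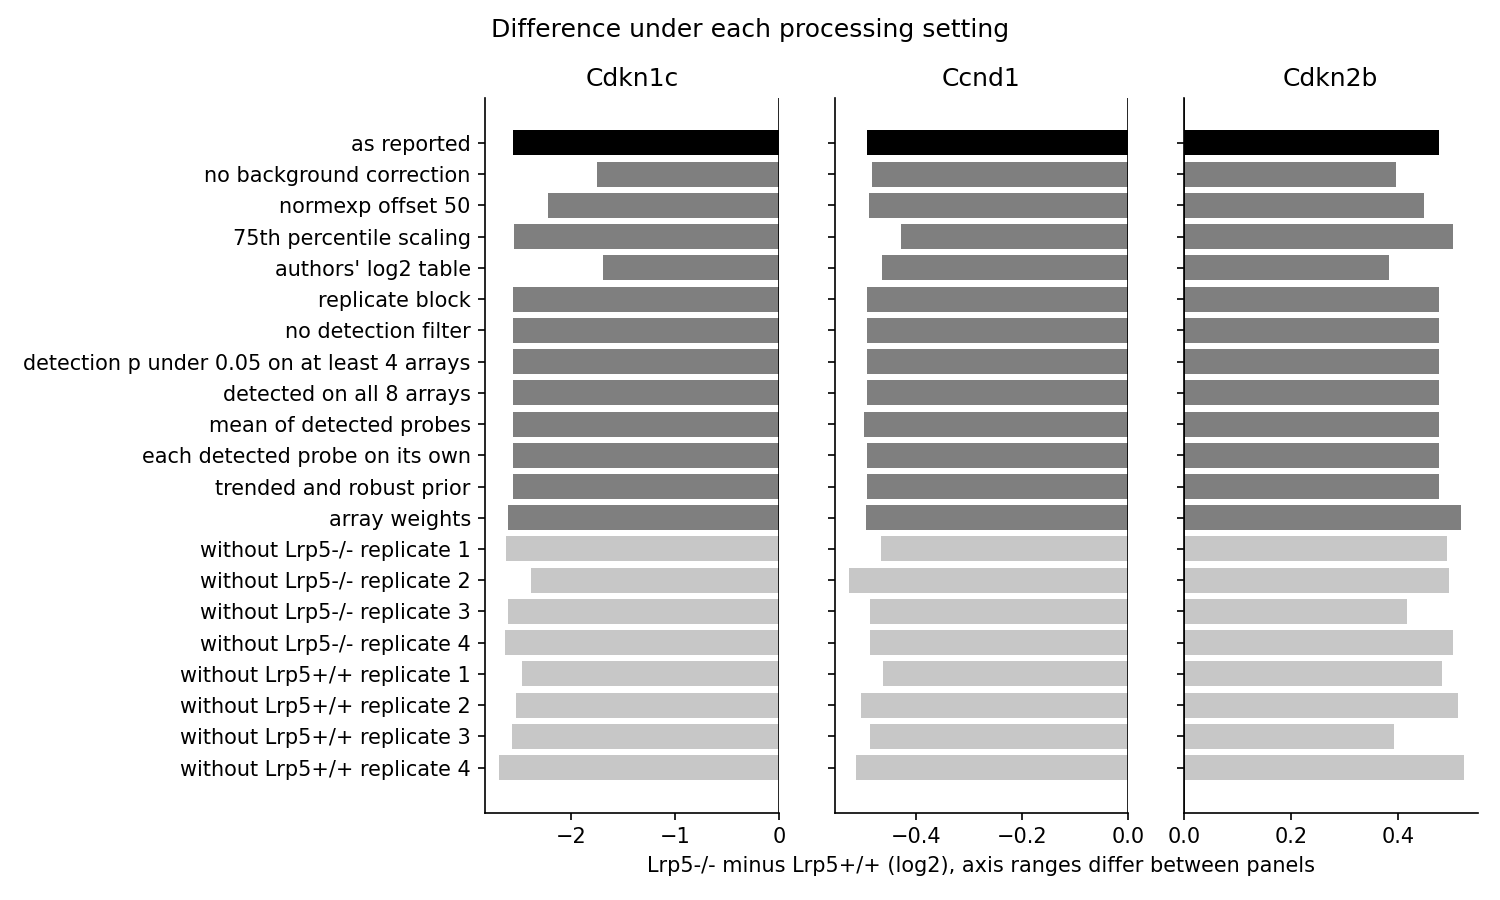
Lrp5-/- minus Lrp5+/+ difference in log2 signal (x axis, range differs between panels) for Cdkn1c, Ccnd1 and Cdkn2b under each processing setting (rows); black bars are the values as reported, dark grey bars other settings on all 8 arrays and light grey bars fits without 1 array. Cdkn1c is shortest in the authors' deposited log2 values (-1.69) and without background correction (-1.75), while Ccnd1 and Cdkn2b keep close to -0.49 and 0.48.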

How the data were processed

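RNA of 4 Lrp5-/- and 4 Lrp5+/+ samples was measured on Illumina arrays, 1 array a sample. Per the file headers, the authors deposited a signal intensity and a detection p-value for each of 25697 probes on each array. On every array the detection column rises as intensity does (Spearman correlation 0.979 or more), so 1 minus it was used. A second deposited table holds log2 values, used only as an alternative; its background treatment and scaling by the authors are not stated. Of tools, the submitters' processing notes give GenomeStudio alone.

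Intensities were background-corrected from the detection p-values with an offset of 16, quantile-normalized and put on the log2 scale (neqc, limma 3.58.1, R 4.3.3). A probe was kept (10004) where its detection p was under 0.01 on 4 or more arrays, and the brightest probe stood for a gene (7041 genes). Groups were compared with lmFit and eBayes without covariates, with Benjamini-Hochberg adjustment at 0.05. The steps were tested on simulated data. The arrays held no duplicates (0 of 28 pairs identical). Symbols come from the platform annotation.

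The members and the lists were chosen with earlier results of these data known. Named are all members with every probe, for each list the called genes of smallest p, up to 4, any gene needed to state a count of 5 or fewer, the 5 genes with the profile most like that of Cdkn1c and of Ccnd1, Lrp5, and the genes next to Cdkn1c and Cdkn2a; other list genes were named as examples after their values were seen. Alternatives were other background corrections, scalings, detection filters, probe summaries, priors and weights, the replicate number as a block, the authors' log2 values and leaving out each array.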

Additional observations from a re-analysis of the deposited data

Results flagged for a closer look

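In groups of 4 arrays, 58 groups of detected probes were examined for an array that stood apart from the other 3 by Dixon's test for 4 values, which compares the gap with the range. Of these, 5 had such an array, where chance flags about 1 group in 20. Cdkn1c on Lrp5-/- array 2 read 6.16 log2, below the other 3 at 6.82 to 6.89, and without that array its difference was -2.38. Cdkn2b on Lrp5-/- array 3 read 9.52 log2, above the other 3 at 9.26 to 9.30. For Ccnd1 the second probe read 11.80 log2 on Lrp5-/- array 3, below the others at 11.91 to 11.94, and the last probe read 9.71 log2 on Lrp5+/+ array 3, above the others at 9.50 to 9.52. Ezh2 read 7.68 log2 on Lrp5-/- array 4, above the others at 7.34 to 7.36, where it overlapped the Lrp5+/+ arrays.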

How the results depend on the processing

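Of 20 alternatives, 10 kept the count of 607 called genes within 1.5 times. It was 978 without background correction, 971 in the authors' log2 values, 965 with a trended and robust prior and 376 without a detection filter, and between 310 and 708 when 1 array was left out (400, 341 and 396 without Lrp5-/- array 1, 2 or 3, and 352, 310 and 315 without Lrp5+/+ array 1, 2 or 3). The pathway genes called lower, 10 as reported, were 17, 16 and 17 under those first 3 settings, and between 3 and 11 with 1 array left out. Pathway genes called higher, 0 as reported, were 1 without background correction, with an offset of 50, in the authors' log2 values, with detection on all 8 arrays, with the mean of probes, with the trended prior and with array weights, each time Foxo1, and between 0 and 1 with 1 array left out (Foxo1 without Lrp5+/+ array 2 and Ccng2 without Lrp5+/+ array 4). The difference of Cdkn1c was -1.75 without background correction (3.36-fold), -2.22 with an offset of 50 and -1.69 in the authors' log2 values, and between -2.69 and -2.38 with 1 array left out. The labels do not say whether same-numbered arrays were paired. Such arrays deviated together with correlations of 0.09, -0.03, 0.00 and 0.00 over detected genes, which cannot settle it. With the replicate number as a block, 408 genes were called (159 higher), Cdkn2b was not called (limma adjusted p = 0.0547), and 7 pathway genes were called lower: Cdk1 (0.0545), Cdk2 (0.0558), Ezh2 (0.0536) and Mcm4 (0.0511) were lost and Tk1 was added. Cdkn1a was called with the trended prior. Calls of members are a description, since this contrast chose them. Signals near background limit Cdkn1c in Lrp5-/- cells, Cdkn2a, Cdkn2d and the last Ccnd3 probe. Dim list genes also hang on the background correction. Without it the differences of Ccne1, Ccne2, Mcm2, Ezh2 and Bmi1 were -0.28, -0.22, -0.41, -0.23 and -0.21. The cause of these shifts was not tested.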
